A study of Rattus norvegicus with 12 samples.

Results

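The 8 genes described here, Col1a1, Col1a2, Col3a1, Pcolce, Sparc, Mmp14, Timp1 and Tagln, make or remodel the collagen matrix or belong to contractile matrix-producing cells. They are 8 of the 10411 genes with a symbol of their own in the array annotation and were read by 11 probe sets, 2 each for Col1a1, Col1a2 and Sparc and 1 for each of the other genes. They were chosen by their measured ratios in these same samples, so their ratios are given as a description, without a test. RNA of rats with a thermal injury was set against RNA of sham controls on Affymetrix RAE230A arrays on days 1, 2, 4 and 7, with 3 samples a day and 12 in all. Sham is channel 1 and injury channel 2 in the labels. They give no strain, age, sex, tissue, burn size or pooling. They do not tell whether the 3 samples taken on a day are 3 animals, and the p-values below therefore measure only the spread between these samples, which may be technical. Values are log2 ratios centred on each array's median, and 0 means no difference from that median. Injury over sham is the likely direction, from the channel order. On day 1 the identifiers do not stand for the same probe sets as on the other days, and the 3 samples of that day were left out, which leaves 9.

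Fibrillar collagen is made as procollagen, and Col1a1 and Col1a2 encode the chains of type I and Col3a1 the chain of type III. Pcolce speeds the cutting of the procollagen tail, Sparc binds collagen outside the cell, Mmp14 is a membrane-bound protease that cuts collagen and activates other proteases, and Timp1 inhibits matrix metalloproteinases. Tagln is an actin-binding protein of smooth muscle and of activated, contractile fibroblasts. In liver, stellate cells store vitamin A at rest and after injury can turn into contractile cells that produce collagen. In bulk RNA, fewer cells of a type and less RNA per cell cannot be told apart.

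Promoter sequences were in the RefSeq table of the GRCr8 assembly for 4 of the 8 genes. On day 7 Col1a2 and Sparc were below 0, Pcolce was above 0, and Timp1 lay on both sides. The 4 sequences are shown because the table held them, not for these ratios. Each is the 250 bases before the annotated start, 5′ to 3′ on the gene's strand. Capitals mark the motifs searched, on both strands.
Col1a2 promoter: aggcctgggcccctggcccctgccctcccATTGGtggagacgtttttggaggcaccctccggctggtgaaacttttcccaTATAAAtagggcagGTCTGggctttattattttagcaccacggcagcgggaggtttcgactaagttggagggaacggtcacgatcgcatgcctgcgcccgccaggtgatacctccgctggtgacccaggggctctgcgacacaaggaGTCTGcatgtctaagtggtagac
Sparc promoter: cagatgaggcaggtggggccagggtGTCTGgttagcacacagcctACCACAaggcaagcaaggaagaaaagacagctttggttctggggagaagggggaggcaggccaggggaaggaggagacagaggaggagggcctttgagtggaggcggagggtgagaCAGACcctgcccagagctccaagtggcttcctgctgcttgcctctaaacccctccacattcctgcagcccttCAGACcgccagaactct
Pcolce promoter: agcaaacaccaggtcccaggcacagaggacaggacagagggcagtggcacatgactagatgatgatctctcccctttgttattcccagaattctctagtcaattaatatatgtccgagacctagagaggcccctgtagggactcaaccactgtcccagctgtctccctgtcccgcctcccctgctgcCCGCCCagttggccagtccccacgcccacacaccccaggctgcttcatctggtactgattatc
Timp1 promoter: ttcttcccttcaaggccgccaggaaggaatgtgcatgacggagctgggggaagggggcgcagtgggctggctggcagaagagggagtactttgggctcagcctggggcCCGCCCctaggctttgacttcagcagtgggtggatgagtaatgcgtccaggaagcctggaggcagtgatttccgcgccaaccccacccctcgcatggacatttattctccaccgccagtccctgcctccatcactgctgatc

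These stretches lie at chr4:33518307-33518556 on the plus strand for Col1a2, chr10:40038817-40039066 on the minus strand for Sparc, chr12:24720722-24720971 on the plus strand for Pcolce and chrX:3771123-3771372 on the minus strand for Timp1. The motifs were TATAAA (the letters of a TATA box), CCAAT (the binding sequence of NF-Y), GGGCGG (SP1), CAGAC (SMAD), TGTGGT (RUNX), TGACTCA (AP-1) and the CArG box of smooth muscle promoters. They did not overlap in these stretches. Col1a2 held TATAAA from base -170 to -165, which 12.9% of the 33469 promoters of the table hold, and CCAAT on the opposite strand from -221 to -217, which 34% hold. The annotated start was not checked against transcripts. Whether TATAAA acts as a TATA box that far from it was not tested. CAGAC stood at 2 places in Col1a2 and at 3 in Sparc, against 42.9% of all promoters with at least 1. Sparc also held TGTGGT, found in 14.5% of all promoters, on the opposite strand. Pcolce and Timp1 each held GGGCGG on the opposite strand, as 30.5% of all promoters do on either strand. TGACTCA (4.05% of all promoters) and the CArG box (1.5%) were not among the letters of these 4 stretches.

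Pcolce was above the array median in all 9 samples, Mmp14 was high on day 2, and Tagln, Sparc and the collagens were low on day 7. Of all 10411 genes, 0.480% were above 0 in all 9 samples, and Pcolce was the 1 of the 8 genes that was. On day 2 all 8 means were above 0, with a median of 0.16 against 0.00472 over all genes. Mmp14, Pcolce and Col3a1 were above 0 in all 3 samples of day 2, as were 13.8% of all genes. On day 7 the means of 7 of the 8 genes were below 0, with a median of -0.35 against -0.01 over all genes. Tagln, Col1a1, Col1a2, Col3a1 and Sparc, 5 of the 8, were below 0 in all 3 samples of day 7, as were 18.0% of all genes. Since the genes were chosen from these values, nothing is read from these counts. Without centring the arrays, the day 7 means of Mmp14 and Timp1 lay at 0.0158 and 0.052 and the day 2 mean of Col1a1 at -0.0123, and the signs of the other means were as given.

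**Figure D1:**
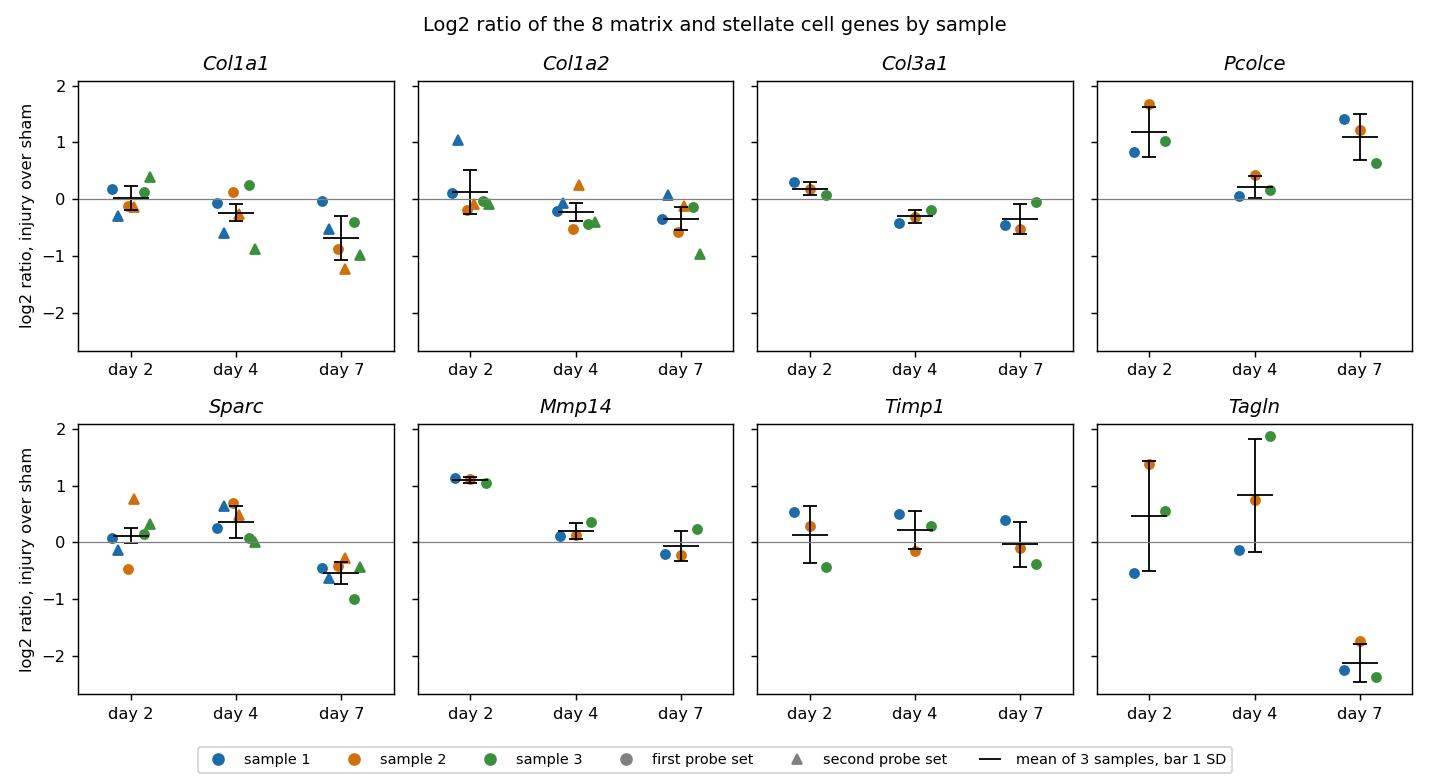
Log2 ratio of injury over sham (y axis) of the 8 genes in samples 1 to 3 (colours) of days 2, 4 and 7 (x axis). Circles and triangles are the first and second probe set, and black bars the mean and 1 SD of 3 samples. Tagln lies between -2.37 and -1.74 on day 7 and Mmp14 between 1.04 and 1.14 on day 2.

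Col1a1 went from a mean near 0 on day 2 to -0.68 ± 0.39 on day 7 (SD, n = 3), a 1.60-fold lower level than in sham. Averaged over its probe sets, it was at -0.06, -0.13 and 0.26 in samples 1 to 3 of day 2. The day 4 values were -0.33, -0.06 and -0.31. On day 7 they were -0.28, -1.05 and -0.70. The day 7 samples lay below all those of day 2, and sample 1 of day 7 lay among those of day 4. The probe sets disagreed on day 4: the first had a mean of 0.10 ± 0.16 and the second -0.58 ± 0.31 (SD, n = 3 for each). On day 7 both were below 0 in 3 of 3 samples, at -0.44 ± 0.42 and -0.91 ± 0.36. The annotation gives the same sequence record for both. Over the 9 samples the first read 0.41 ± 0.38 above the second (SD, n = 9). The sign of the day 2 mean, 0.02 ± 0.21 (SD, n = 3), turned to -0.10 without sample 3.

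Col1a2, the partner chain of type I collagen, was 1.27-fold lower than in sham on day 7. Its averages in samples 1 to 3 were 0.58, -0.14 and -0.06 on day 2, -0.13, -0.15 and -0.41 on day 4, and -0.14, -0.35 and -0.55 on day 7. The 3 day 7 samples lay below those of day 2, by less than 0.01 between sample 1 of day 7 and sample 2 of day 2, and overlapped those of day 4. The means were 0.13 ± 0.39, -0.23 ± 0.16 and -0.35 ± 0.20 (SD, n = 3 for each day). The day 2 mean rested on sample 1, where the first probe set read 0.10 and the second 1.05, and without that sample it was -0.10. On day 7 the first was below 0 in 3 of 3 samples and the second in 2 of 3.

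Col3a1, the chain of type III collagen, was the collagen whose samples of day 2 stood apart from all later ones. It was at 0.30, 0.18 and 0.07 on day 2, and all 6 later samples were below 0. They read -0.42, -0.31 and -0.19 on day 4 and -0.46, -0.53 and -0.06 on day 7. The means were 0.18 ± 0.12, -0.30 ± 0.11 and -0.35 ± 0.26 (SD, n = 3 for each day), and day 4 and day 7 overlapped. Among all genes, 1.59% had all 3 day 2 samples above all 6 samples of days 4 and 7, and 2 of the 8 genes did, Col3a1 and Mmp14.

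Pcolce, the enhancer of procollagen processing, was 2.27-fold above sham on day 2 and 2.13-fold on day 7, while the collagen chains themselves were near or below 0. It was at 0.84, 1.68 and 1.03 in samples 1 to 3 of day 2. On day 4 it was at 0.05, 0.42 and 0.17. On day 7 it was at 1.42, 1.22 and 0.64. Day 4 was the low day, below all samples of days 2 and 7, which overlapped each other. Of all genes 2.80% had that order. The means were 1.18 ± 0.44, 0.21 ± 0.19 and 1.09 ± 0.40 (SD, n = 3 for each day), and 0.83 ± 0.56 over all 9 samples (SD, n = 9).

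Sparc, which binds collagen and is made by matrix-producing cells, was above 0 on day 4 and below 0 on day 7. Averaged over its probe sets it read -0.02, 0.14 and 0.24 on day 2, 0.45, 0.59 and 0.04 on day 4, and -0.54, -0.35 and -0.72 on day 7. All 3 day 7 samples lay below the 6 earlier ones, which overlapped each other. This held for Sparc and Tagln among the 8 genes and for 3.05% of all genes. The means were 0.12 ± 0.13, 0.36 ± 0.29 and -0.54 ± 0.19 (SD, n = 3 for each day). Its probe sets had the same sign in 1 of 3 samples of day 2 and in all 3 of days 4 and 7. In sample 2 of day 2 they read -0.47 and 0.76.

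Mmp14, the collagen-cutting membrane protease, was 2.15-fold above sham on day 2, with the tightest samples of the 8 genes on that day. It was at 1.14, 1.12 and 1.04 on day 2, at 0.11, 0.13 and 0.36 on day 4, and at -0.21, -0.23 and 0.24 on day 7. Day 2 stood clear of every later sample, and days 4 and 7 overlapped. The means were 1.10 ± 0.05, 0.20 ± 0.14 and -0.07 ± 0.26 (SD, n = 3 for each day). The sign of the day 7 mean turned without sample 1 (0.00456) or sample 2 (0.0119).

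Timp1, an inhibitor of these proteases, had samples above and below 0 on each of the 3 days. It was at 0.54, 0.29 and -0.43 on day 2, at 0.50, -0.15 and 0.29 on day 4, and at 0.40, -0.10 and -0.39 on day 7. All 3 days overlapped. The means were 0.13 ± 0.50, 0.21 ± 0.33 and -0.03 ± 0.40 (SD, n = 3 for each day). Without sample 1 the day 2 mean was -0.07, and without sample 2 or 3 the day 7 mean was 0.00328 or 0.15.

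Tagln, the contractile-cell gene, was 4.35-fold lower than in sham on day 7, the lowest value among the 8 genes. It was at -0.55, 1.39 and 0.55 on day 2, at -0.13, 0.74 and 1.87 on day 4, and at -2.26, -1.74 and -2.37 on day 7. Days 2 and 4 overlapped and spread widely, and all day 7 samples lay below both. The means were 0.46 ± 0.97, 0.83 ± 1.00 and -2.12 ± 0.34 (SD, n = 3 for each day), and the day 2 mean fell to -2.80e-05 without sample 2. From day 2 to day 7 the means of all 8 genes went down. Tagln had the largest difference (-2.58), followed by Mmp14 (-1.17), Col1a1 (-0.70), Sparc (-0.66), Col3a1 (-0.53), Col1a2 (-0.47), Timp1 (-0.17) and Pcolce (-0.09). All of these but Timp1 and Pcolce, 6 of the 8, had their 3 day 7 samples below their 3 day 2 samples, as did 7.15% of all genes.

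Most deposited ratios are the log2 quotient of a pair of whole numbers, which were recovered as injury and sham signals in lowest terms, so the true signals can be a common multiple of those printed. Each printed signal is therefore a lower limit, and signals of different samples are set side by side without an order. In the 9 samples between 94.0% and 94.6% of the ratios gave a pair of numbers of at most 20000, against between 7.34% and 7.90% of ratios shifted at random. The median injury signal of an array was between 1060 and 1297 and the median sham signal between 938 and 1315. Tagln was dim: the median of its smaller signal, 125, was at the 10.3 percentile of all probe sets. On days 2 and 4 its sham signals were between 94 and 341 and its injury signals between 115 and 437. On day 7 sample 1 had 124 for injury and 583 for sham, sample 2 had 39 and 124, and sample 3 had 264 and 1217. Which channel made the day 7 ratios low was not tested.

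Mmp14 was brighter, with printed injury signals between 6836 and 9926 on day 2 and between 4417 and 12068 on day 7. Its printed sham signals were between 3025 and 4861 on day 2 and between 4933 and 11579 on day 7. For Pcolce, sample 1 of day 2 had 524 for injury and 287 for sham, sample 2 had 3405 and 1162, and sample 3 had 5399 and 2662. On day 4 its injury signals were between 819 and 2509 and its sham signals between 760 and 1896. On day 7 they were between 5131 and 9598 and between 1892 and 4665. Timp1 had injury signals between 239 and 3579 and sham signals between 269 and 3137 over the 9 samples. For Col3a1 a pair was found in 1 of 9 samples, so its channels are not described.

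**Figure D2:**
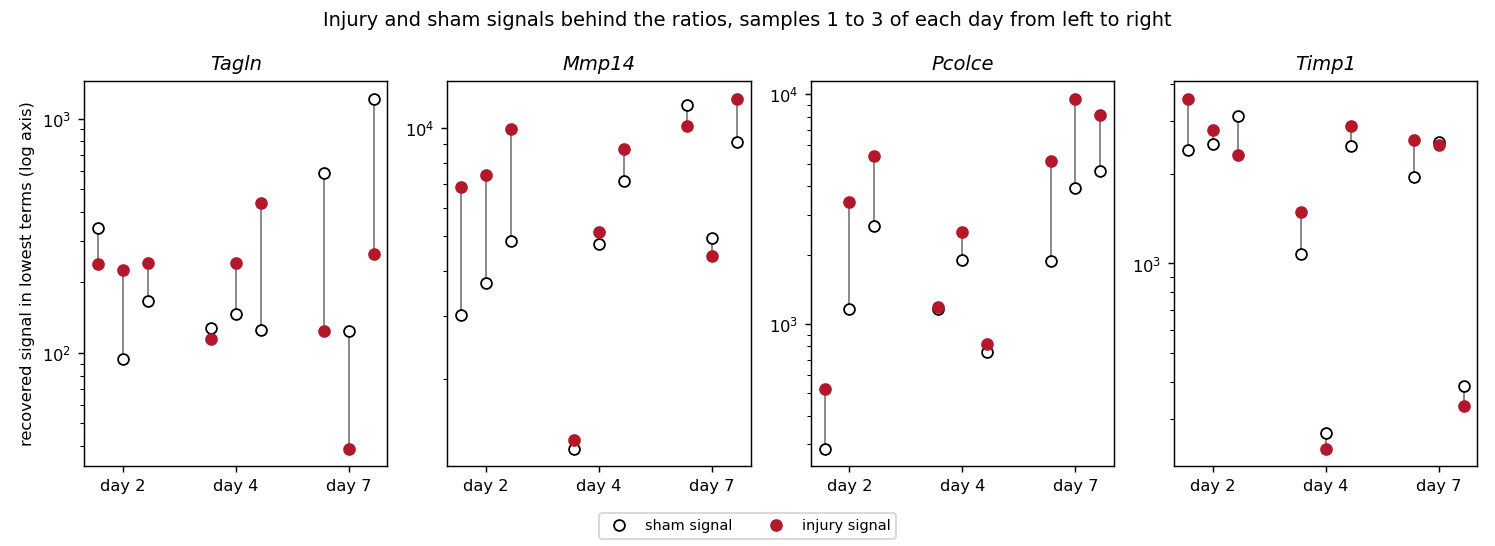
Injury (filled) and sham (open) signals in lowest terms (y axis, log scale) of Tagln, Mmp14, Pcolce and Timp1 in samples 1 to 3, from left to right, of days 2, 4 and 7 (x axis). The printed sham signals of Tagln lie between 94 and 341 on days 2 and 4 and are 583, 124 and 1217 in samples 1 to 3 of day 7. Each printed pair is a lower limit, since the true signals can be a common multiple, and no order between samples is read.

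Across all 10411 genes, few genes passed, and 0 of the 8 did in the main fit. It was limma with a mean for each day over the 9 samples, Benjamini-Hochberg adjustment over all genes and a threshold of 0.05. For the mean of the 3 days 4 genes passed (0.0384% of those tested), Map2k6, Orm1, Spink1l and Zfp37, with 935 at an unadjusted p under 0.05. For day 2, day 4, day 7 and day 7 minus day 2, limma called 0 genes (0%), with 809, 917, 1139 and 776 at an unadjusted p under 0.05. When limma's variance prior followed the brightness of the probe sets, 35 genes passed for the mean (0.336%), Mmp14 and Pcolce among them. That fit called 15 for day 2 (0.144%), with Mmp14 among them. It called 0 genes for day 4, with 1101 at an unadjusted p under 0.05, 4 for day 7 (0.0384%) and 0 for day 7 minus day 2, with 859 at an unadjusted p under 0.05, and none of the 8 genes in these. These contrasts chose the genes, so the calls describe them and are no further evidence.

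Of the other genes of the matrix, 150 of 180 listed had a probe set of their own, and limma called 0 of them in each of the 5 comparisons in both fits. At an unadjusted p under 0.05 in the main fit there were 19 for the mean of 3 days, 13 for day 2, 12 for day 4, 16 for day 7 and 9 for day 7 minus day 2. These are 12.7%, 8.67%, 8%, 10.7% and 6% of the 150, against 8.98%, 7.77%, 8.81%, 10.9% and 7.45% of all genes. Their median was 0.02 on day 2 and -0.06 on day 7, with 82 of 150 below 0 on day 7. The 8 genes described above had medians of 0.16 and -0.35 on these days. Apart from smooth muscle genes looked up after their values were seen, the genes named below had the smallest p in their list for the mean, day 2 or day 7. None passed: their adjusted p was at least 0.144 in the main fit and at least 0.0782 in the brightness fit.

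The other collagens and the basement membrane components were spread around 0 on each day. Of the 12 other fibrillar and associated collagens 7 were below 0 on day 7 (median -0.12). Col6a3, a chain of the beaded filaments around cells, was at 0.17 ± 0.09, 0.11 ± 0.02 and -0.41 ± 0.31 on days 2, 4 and 7 (SD, n = 3), below 0 in 3 of 3 samples of day 7. Col11a1 had a mean of -1.04 ± 1.32 on day 2 and Col27a1 -1.19 ± 2.16 on day 7, so their spread was larger than their means. The 2 probe sets of Col11a1 read -3.31 and 0.30 in sample 1 of day 2 and 0.43 and -4.56 in sample 2. Their printed signals, which are lower limits, were at most 356. Of the 18 basement membrane components 9 were below 0 on day 7 (median 0.03). The laminin chain Lama3 was below 0 in 9 of 9 samples, with a mean over 3 days of -0.37 (SE 0.13). Before centring its sample 2 of day 7 was above 0, with 703 for injury and 691 for sham. How many of all genes were below 0 in all 9 samples was not counted, here or for Lrat below. Lamb2 was at 0.35 ± 0.17 on day 2, 0.76 ± 0.48 on day 4 and -0.77 ± 0.57 on day 7, and Col4a4 at 1.43 ± 1.24 on day 2.

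Among the 21 matrix glycoproteins, Mgp, the matrix inhibitor of calcification, had the smallest adjusted p of the 150 genes on day 7 (limma, 0.144, and 0.0782 in the brightness fit). It was at 0.32, 0.25 and 0.43 on day 2, 0.06, 0.01 and -0.47 on day 4, and -0.72, -1.10 and -1.13 on day 7. All day 7 samples lay below the earlier ones, the order that Tagln and Sparc showed. Efemp1, a fibulin, had a mean of -1.14 over 3 days (SE 0.24) and was below 0 in 8 of 9 samples. Its printed signals, which are lower limits, were at most 202 for injury and 515 for sham, below the array medians. The list had 18 of 21 genes below 0 on day 4 (median -0.23). Among the 14 proteoglycans Cspg4 had 1.81 ± 1.43 on day 2, and Omd -0.48 ± 0.15 on day 7. The printed day 2 sham signals of Cspg4 were 121, 756 and 19 in samples 1 to 3, again lower limits.

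Enzymes of collagen synthesis and crosslinking had 15 measured genes and a median of -0.00227 on day 7. P3h1, a collagen prolyl hydroxylase, was above 0 in 9 of 9 samples, as Pcolce was, with a mean of 0.29 over 3 days (SE 0.09). Of the 21 matrix proteases other than Mmp14, 13 were above 0 on day 7 (median 0.21) and 11 on day 2 (median 0.02). Adam10, which sheds proteins from the cell surface, was at 0.31 ± 0.06 on day 2 and 0.89 ± 0.38 on day 7, and the plasminogen activator Plat at -0.71 ± 0.34 on day 2. The 2 probe sets of Adam10 differed on day 2, at 0.78 and -0.03 in sample 1 and 0.55 and 0.05 in sample 2. The small SD is that of their average. The 4 protease inhibitors other than Timp1 were below 0 on day 7, among them Reck at -0.42 ± 0.31. Serpine2 was at -0.22 ± 0.47 on day 2.

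Contractile and stellate cell markers other than Tagln had 16 of 24 genes below 0 on day 7 (median -0.15). Tpm2, a tropomyosin of smooth muscle, was at -2.31 ± 0.70 on day 7, in 3 of 3 samples below 0, and spread from -1.56 to 2.69 on day 4. Acta2, the smooth muscle actin that defines activated stellate cells, was named for that role after its values were seen. It had means of 0.15 ± 0.21, 0.12 ± 0.45 and -0.06 ± 0.24 on days 2, 4 and 7 (SD, n = 3). Other smooth muscle genes looked up with Acta2 were Cnn1, at -0.50 ± 0.16 on day 7, Myh11, at -0.14 ± 0.17, and Actg2, at 0.09 ± 0.39. Myl9 was at -0.55 ± 0.28 on day 7, Cald1 at 0.26 ± 0.17 and Smtn at -0.11 ± 0.45. With Tpm2 and Des, these make up the 9 smooth muscle markers. Des, the intermediate filament protein of rat stellate cells, was at 0.77, 0.83 and 0.62 on day 2 and at -0.10 ± 0.28 and 0.25 ± 0.31 on days 4 and 7. Lrat, the enzyme that stores vitamin A as ester, was below 0 in 9 of 9 samples, with a mean of -0.41 over 3 days (SE 0.09, limma adjusted p = 0.248). In TGF-beta and PDGF signalling, with 12 of 21 genes above 0 on day 7, Bambi, a decoy receptor, was above 0 in 9 of 9 samples (mean 0.31, SE 0.11). Before centring its sample 2 of day 2 was below 0, with 2759 for injury and 2842 for sham. Tgfbr3 was at 0.32 ± 0.36 on day 2 and Tgfb1i1 at -0.54 ± 0.46 on day 7. The 2 probe sets of Tgfbr3 read 0.12 and -0.19 in sample 2 of day 2 and 0.85 and -0.20 in sample 3.

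**Figure D3:**
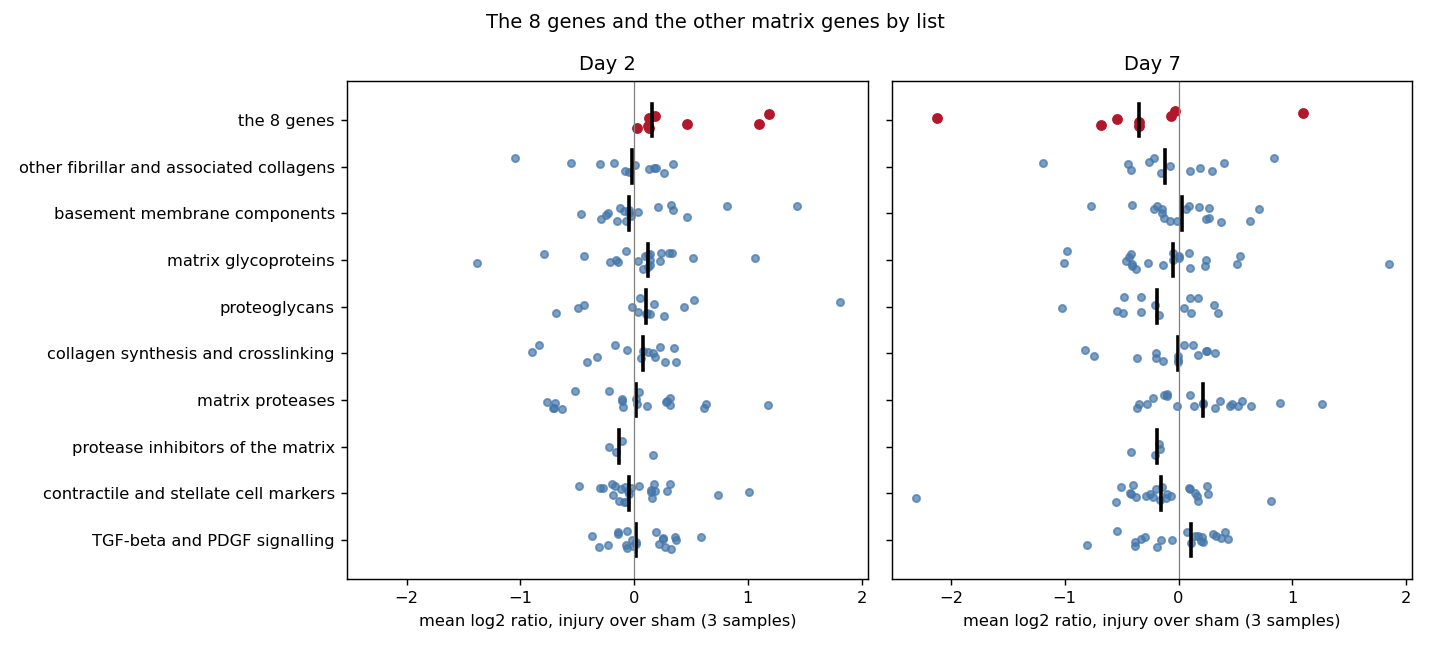
Mean log2 ratio over 3 samples (x axis) on day 2 (left) and day 7 (right) for the 8 genes (red) and the other matrix genes by list (blue), with the median of each row as a black line. The median of the 8 genes is 0.16 on day 2 and -0.35 on day 7, and each blue median lies between -0.19 and 0.21 on day 7.

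The label of stellate cell genes could not be checked against a tissue, since the labels name none, and ratios give no level of a cell type. Of 10 markers of resting (quiescent) stellate cells 9 had values. Their median in a sample was below 0 throughout day 4, between -0.33 and -0.02. It was between -0.24 and 0.16 on day 2 and between -0.40 and 0.12 on day 7. For the 9 smooth muscle markers it was between -0.30 and 0.04 on day 7, and for the 10 fibroblast markers between -0.23 and 0.29. The 9 endothelial markers measured of 12 had medians between -0.36 and -0.12 on day 7, and between -0.21 and 0.26 on day 2. The cholangiocyte list was below 0 in all samples of day 7 (between -0.49 and -0.12) and of day 4 (between -1.21 and -0.16), and lay between -0.13 and 0.63 on day 2. The hepatocyte list was below 0 in all samples of day 7 (between -0.18 and -0.08), with values between -0.02 and 0.24 on day 2 and between -0.22 and 0.04 on day 4. The red cell list, with 5 of 12 markers measured, was above 0 in all samples of day 7 (between 0.12 and 0.92) and of day 4 (between 0.47 and 0.81), and lay between -0.24 and 0.53 on day 2. The macrophage list was above 0 in all samples of day 4 (between 0.11 and 0.38) and on both sides of 0 on days 2 and 7. The skeletal muscle list was below 0 in all samples of days 2 and 7, between -0.54 and -0.00375. Of 22 exocrine pancreas markers 17 had values, and their medians in samples 1 to 3 of day 4 were 0.10, 2.62 and 1.38. In these samples Tagln was at -0.13, 0.74 and 1.87, Mmp14 at 0.11, 0.13 and 0.36, and Pcolce at 0.05, 0.42 and 0.17. Sparc was at 0.45, 0.59 and 0.04, and Timp1 at 0.50, -0.15 and 0.29. Col1a1 was at -0.33, -0.06 and -0.31, Col1a2 at -0.13, -0.15 and -0.41, and Col3a1 at -0.42, -0.31 and -0.19. As a sign of RNA quality, the injury over sham log2 ratio of the 5′ control probe set was subtracted from that of the 3′ one. The difference compares injury RNA with sham RNA and is no measure of either alone. This difference was below 0 in all 3 samples of day 7. It was -0.88, -0.44 and -0.88 for actin and -0.39, -0.21 and -0.80 for GAPDH. Day 2 also had actin below 0 in 3 of 3 samples, at -0.79, -0.31 and -0.06, and GAPDH in 2 of 3, at -0.42, -0.19 and 0.11. Day 4 had values on both sides of 0, between -0.35 and 0.38 for actin and between -0.08 and 0.31 for GAPDH. The part of these markers and of RNA quality in the values of the 8 genes was not tested.

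**Figure D4:**
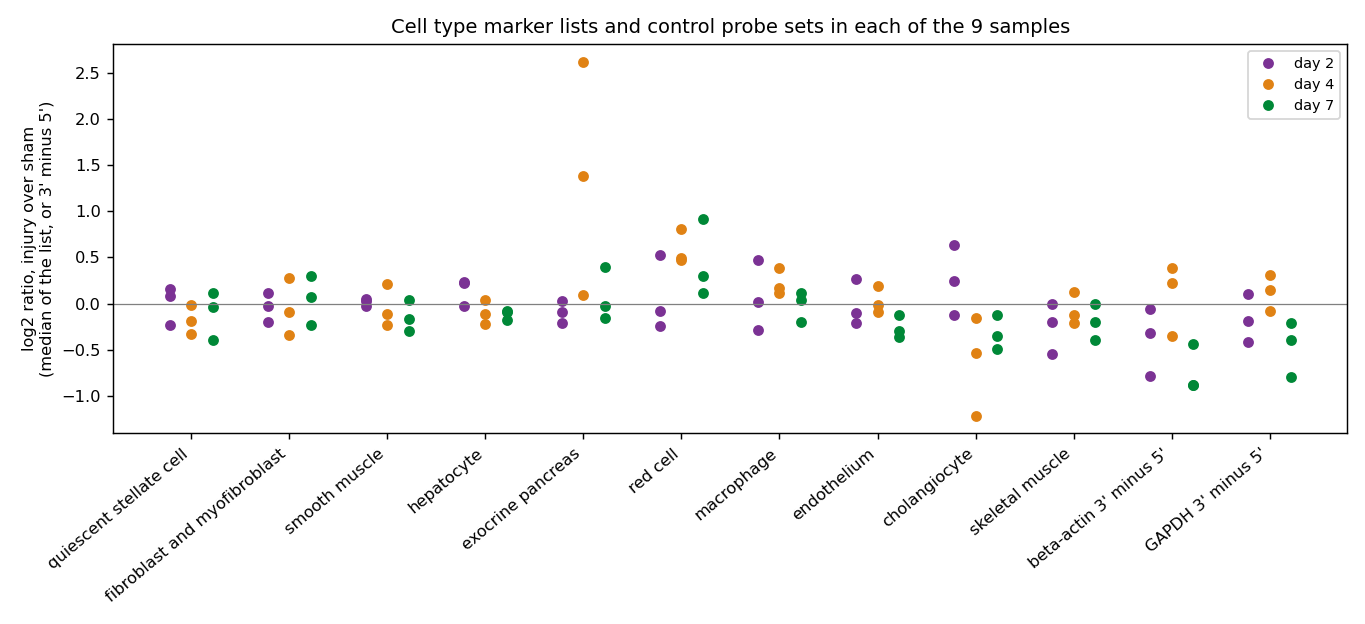
Median log2 ratio of each marker list in each of the 9 samples (points, coloured by day), and the 3′ minus 5′ difference of the actin and GAPDH control probe sets (y axis, log2). This difference is between injury over sham ratios, so it compares injury RNA with sham RNA. The exocrine pancreas list reaches 2.62 in a sample of day 4, and the actin difference is below 0 in all samples of day 7.

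The genes whose ratios over the 9 samples ran most like those of the 8 genes were picked as the highest correlations among all other genes, so no p is given, and each is a description over 9 samples that share the 3 days. For Tagln they were Acaa2 (Pearson r 0.96, Spearman rho 0.93), Mrpl4 (0.96, 0.98) and Rmnd1 (0.95, 0.92). Their own day 7 means were -0.37 ± 0.09, -0.37 ± 0.09 and -0.37 ± 0.14 (SD, n = 3), against -2.12 for Tagln. For Mmp14 they were Crp (0.93, 0.95), Flna (0.92, 0.82) and Ecm1 (0.91, 0.90), with day 2 means of 0.27, 0.53 and 0.04. For Pcolce they were Camk2n2 (0.93, 0.93), A2m (0.91, 0.92) and Vapb (0.90, 0.92). A2m, an acute-phase protease inhibitor, was at 1.87, 0.52 and 1.43 on days 2, 4 and 7, so day 4 was low as for Pcolce. For Timp1 they were Spa17 (0.93, 0.88), Osbp (0.92, 0.90) and Narf (0.92, 0.85). For the mean of the 3 collagen chains they were Igsf11 (0.96, 0.92), Neurog1 (0.94, 0.95) and Psmc3ip (0.94, 0.92). Without the 2 samples farthest from the median of the reference pattern, the 15 values of r were between 0.81 and 0.93.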

How the data were processed

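The authors deposited 1 log2 ratio per probe set and sample, and how they scaled the arrays, with which software, is not given in the sources used here. Of 15923 probe sets, 57 controls were left out. Symbols came from the platform annotation, which named 1 gene for 12783 probe sets, more than 1 for 312 and no gene for 2771. For 12748 probe sets the gene ID was in the GRCr8 reference table, which changed 0 symbols. Each array was centred on its median (between -0.13 and 0.16 before), and probe sets of a gene were averaged. Over probe sets, the 9 pairs of arrays of the same day correlated between 0.00271 and 0.15 and the 27 pairs of different days between -0.10 and 0.12. Replicates thus shared little of their variation, and these values do not show whether an array is reversed.

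Genes were tested with the lmFit and eBayes functions of limma 3.58.1 (R 4.3.3), with 6 residual degrees of freedom, and the code was tested on simulated data. The number of arrays limits the precision. Signals were recovered by continued fractions with a tolerance of 6e-10 in log2. The brightness fit let the eBayes prior follow the median of the smaller signal. The alternatives were no centring, quantile normalization, array weights, the brightest probe set, single probe sets, leaving out the dimmest 25% of probe sets, a replicate block and leaving out each sample.

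The 8 genes and all lists were chosen with earlier results of these data known. Named are the 8 genes, any other matrix gene called in either fit, the smallest p in each list for the mean, day 2 and day 7, and the 3 genes most correlated with Tagln, Mmp14, Pcolce, Timp1 and the collagen mean. Acta2 and the other smooth muscle genes beside Tpm2 and Des were named outside this rule, after their values were seen.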

Additional observations from a re-analysis of the deposited data

Results flagged for a closer look

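Every sample of a pair of days had the opposite sign for Col3a1 and Sparc. These differences were not tested, because the genes were chosen from these ratios. The share of all genes with such a change of sign was not counted. Of all genes, 13.8% were above 0 in all 3 samples of day 2, and 18.0% were below 0 in all 3 of day 7. Nothing is read from these signs. Col3a1, the type III collagen chain, was above 0 in 3 of 3 samples of day 2 and below 0 in 3 of 3 samples of day 4, a difference of means of -0.49 on the log2 scale. It was also below 0 in 3 of 3 samples of day 7, a difference from day 2 of -0.53. This sign rests on centring: sample 3 of day 7 was at -0.06, on an array with a median of 0.16 before centring. Its deposited ratio was therefore above 0. Sparc was above 0 in 3 of 3 samples of day 4 and below 0 in 3 of 3 of day 7, a difference of -0.90. Sample 3 of day 4 was at 0.04, on an array with a median of -0.06 before centring, so its deposited ratio was below 0.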

How the results depend on the processing

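The number of genes called over all genes changed with most settings for the mean of 3 days, and with few for day 2, day 4 and day 7. For the mean of 3 days it was 4 in the main fit, 2 after quantile normalization, 35 with the prior following brightness, 2 with single probe sets, 8 without the dimmest 25% of probe sets, and between 0 and 3 when a sample was left out. For day 2 it was 0, and 15 with the brightness prior, 3 without them, and between 0 and 1 when a sample was left out. For day 4 it was 0, and 1 after quantile normalization, 2 with array weights, and between 0 and 1 when a sample was left out. For day 7 it was 0, and 4 with the brightness prior, 1 with single probe sets, and between 0 and 1 when a sample was left out. With the replicate block, 0 genes were called for the mean of 3 days in place of 4. No pairing by sample number was seen: deviations of same-numbered samples correlated between -0.04 and 0.07, and those of different numbers between -0.12 and 0.11. Arrays of the same day correlated by at most 0.15, so a pairing could go unseen. The block also takes residual degrees of freedom. The other causes were not tested. The other matrix genes called stayed at 0 in all 5 comparisons under every setting run, and day 7 minus day 2 at 0 genes. Of the 24 day means of the 8 genes 14 were above 0, and between 12 and 16 under the settings tried. Of 144 values under another setting 141 moved by less than 1 SD, and 12 changed sign. Leaving out 1 of 3 samples cannot move a mean by 1 SD. Genes with 1 probe set cannot move with the brightest one. The count of 141 was thus mostly fixed in advance and is no measure of stability. With the brightest probe set in place of the average, 3 moved further: Col1a1 on day 4 to 0.10, Col1a2 on day 4 to -0.07 and Sparc on day 2 to 0.32. Tagln is among the dimmest 25% and was not tested without them.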

Other observations

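Outside the naming rule, and chosen after the values were seen, the matrix lists held genes whose day means were far from 0 in both directions. Tenascin C, Tnc, a glycoprotein of wounds and developing tissue, was at 1.85 ± 0.45 on day 7 against 0.31 ± 1.62 on day 2 (SD, n = 3), the highest day 7 mean of the 150 other matrix genes. The protease Ctsk was at 1.18 ± 0.44 on day 2 and the crosslinking enzyme Lox at -1.12 ± 0.46 on day 4. None of these passed in limma's fits over all genes.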
